A study of Mus musculus with 6 samples.

Results

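The Hox cluster genes of 4T1 cells are described here, as measured after transduction with an shRNA against NFAT1 or with a control shRNA. Members were all genes whose symbol is Hox, a cluster letter from a to d and a number, read by a probe set with only that symbol. By this rule 33 Hox genes were found among 18193 genes on the array, where RefSeq's GRCm38.p6 gene table lists 39. The other 6 were not analysed here. Where a gene had several probe sets, the one of highest mean signal was used, and genes with a log2 signal over 6 in a group were marked. 4T1 is a mouse mammary carcinoma line, labelled highly tumorigenic and metastatic. NFAT1 is a transcription factor that calcium and the phosphatase calcineurin bring into the nucleus, and its gene is Nfatc2. The NFAT1 shRNA group and the control shRNA group held 3 arrays each, numbered 1 to 3, all from the same line and all collected after 10 days of selection. The labels do not give the shRNA sequence, whether the cells were a pool or a clone, or whether the samples of a group were separate cultures. P-values thus rest on the variation among these 6 samples, and it may be technical variation.

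Hox genes encode homeodomain transcription factors that give cells of the embryo their position along the body axis. They lie in 4 clusters, HoxA to HoxD, and within a cluster the order on the chromosome follows the order of expression from head to tail, so that low numbers are anterior and high numbers posterior. HOX proteins bind DNA together with cofactors of the PBX and MEIS families, Polycomb complexes keep the clusters silent, Trithorax-type methyltransferases keep them active, and retinoic acid induces the anterior genes. Adult mammary epithelium expresses a part of these genes. In human breast cancer HOXA5 is known as an activator of the p53 gene that is often silenced.

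Values are log2 signals from RMA, a method that subtracts background, normalizes the arrays by quantiles and joins the probes of a probe set. Differences are NFAT1 shRNA minus control on this log2 scale, so that 1 is a doubling. Signals of different probe sets also depend on the probes, and they are not read as relative abundance of the genes. NFAT1 shRNA 1 stood nearer to the control arrays than to its own group. Its correlation over all probe sets was 0.985 to 0.986 with the other NFAT1 shRNA arrays, which correlated at 0.993 with each other, and 0.991 to 0.995 with the control arrays. Control 3 lay between controls 1 and 2 for 54% of all genes and for 68.7% of those with a group mean over 6. Results are therefore also given without NFAT1 shRNA 1, and without this array and control 3 together. NFAT1 shRNA 1 was picked from these same data because it stood near the controls. Leaving it out thus favours larger differences and lower p-values, and the genes called by limma went from 93 to 3349. P-values from these settings are descriptive and give no independent support. The targeted gene Nfatc2 read 5.15, 5.43 and 5.29 on the NFAT1 shRNA arrays by 1 of its 6 probe sets, against 6.05, 6.18 and 5.91 on the control arrays (difference -0.76, limma adjusted p = 0.0707 over all probe sets). By the Nfatc2 probe set with the highest mean it read 6.19, 6.48 and 6.09 on the NFAT1 shRNA arrays, against 5.92, 5.92 and 5.86 on the control arrays (0.35, adjusted p = 0.251). Of the 6 probe sets of the target, 4 were lower on average in NFAT1 shRNA cells, 3 of them without overlap, and 2 were higher, 1 of them without overlap. The groups are named by their labels throughout.

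The Hox genes with a clear signal in 4T1 cells all lay in the HoxA cluster. A mean over 6 in at least 1 group was found for 6 of the 33 Hox genes (18.2%), where 54.5% of all genes had one. These were Hoxa2, Hoxa3, Hoxa5, Hoxa7, Hoxa9 and Hoxa10, and each exceeded 6 in both groups. No HoxB, HoxC or HoxD gene did: the highest group mean was 5.38 in HoxB, 5.93 in HoxC and 5.82 in HoxD. Just inside the threshold were Hoxa2, at 6.82 in NFAT1 shRNA cells and 6.11 in control cells, and Hoxa7, at 6.76 in NFAT1 shRNA cells and 6.45 in control cells. Just outside were Hoxc9, at 5.93 in NFAT1 shRNA cells and 5.78 in control cells, and Hoxd9, at 5.82 in NFAT1 shRNA cells and 5.75 in control cells. Within HoxA the dim members were Hoxa4, which lies between Hoxa3 and Hoxa5, and the posterior genes Hoxa11 and Hoxa13. A dim probe set does not show that a gene is silent, since RMA compresses low signals.

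**Figure D1:**
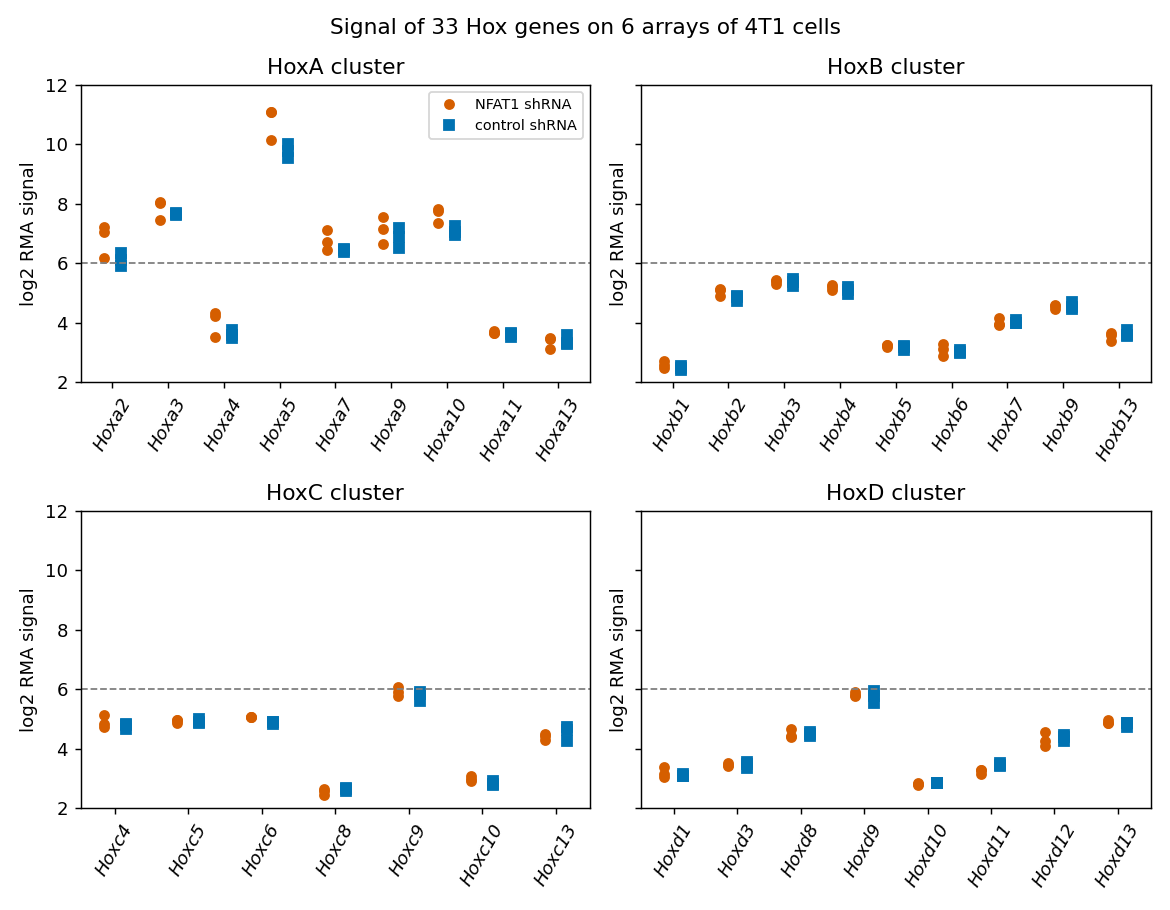
Log2 RMA signal of each of the 33 measured Hox genes, in 1 panel per cluster, with genes by paralogue number on the x axis and 1 point per array (circles NFAT1 shRNA, squares control shRNA, 3 each). The dashed line marks a signal of 6, and the only genes with a mean above it are 6 HoxA genes, of which Hoxa5 reads 10.15 to 11.09 on NFAT1 shRNA arrays and 9.54 to 10.01 on control arrays.

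None of the 33 Hox genes passed the test between NFAT1 shRNA and control cells over all genes (limma, Benjamini-Hochberg adjusted p under 0.05), where 0.511% of all genes did. The lowest adjusted p of a Hox gene was 0.178. An unadjusted p under 0.05 was found for 4 Hox genes, or 12.1%, against 17.1% of all genes. Hoxa2, Hoxa5 and Hoxa10 had higher means in NFAT1 shRNA cells, where 10.1% of all genes were higher at that p, and Hoxd11 had a lower one. The groups did not overlap for 5 Hox genes, or 15.2%, against 22.8% of all genes, and 4 of them were higher, against 14.2% of all genes. A higher mean was seen for 23 Hox genes, or 69.7%, against 59.3% of all genes, and the median difference was 0.07 over the Hox genes and 0.04 over all genes. Most Hox genes were dim, and a higher mean was more common among dim genes, since 52.5% of genes over 6 had one. These shares of the Hox genes are near those of all genes, and their difference was not tested. Of the 6 Hox genes with a signal over 6, all had a higher mean, 3 had an unadjusted p under 0.05 and 2 did not overlap between groups, where 52.5%, 24.3% and 26.9% of all genes over 6 did. The median difference was 0.31 over the 9 HoxA genes, 0.06 over 9 HoxB genes, 0.14 over 7 HoxC genes and -0.00018 over 8 HoxD genes.

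Hoxa5, a gene needed for lung and thoracic patterning, had the largest difference of the family. It read 10.15, 11.09 and 11.08 on the NFAT1 shRNA arrays, against 9.54, 10.01 and 9.79 on the control arrays. All NFAT1 shRNA arrays were above all control arrays, but NFAT1 shRNA 1 lay only just above control 2. The means were 10.77 ± 0.54 in NFAT1 shRNA cells and 9.78 ± 0.24 in control cells (SD, n = 3 each), a 1.99-fold difference. The log2 difference was 0.99 ± 0.28 (SE), with a 95% interval of 0.33 to 1.66 and a limma adjusted p of 0.188. An exact 2-sided permutation test gave p = 0.1, below which groups of 3 cannot go. Another Hoxa5 probe set read 9.91 in NFAT1 shRNA cells and 9.05 in control cells, a difference of 0.86. It is of a class that can cross-hybridise with other transcripts. Without NFAT1 shRNA 1 the difference of Hoxa5 was 1.31 ± 0.14 (SE) and passed (limma adjusted p = 0.00501). With NFAT1 shRNA 1 and control 3 both left out it was 1.31 and passed (adjusted p = 0.0447). With only control 3 left out no Hox gene passed.

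Hoxa10, a posterior gene known for patterning of the uterus, was the other HoxA gene whose groups did not overlap. It read 7.37, 7.75 and 7.83 on the NFAT1 shRNA arrays, against 7.05, 7.27 and 6.96 on the control arrays. The difference was 0.56 ± 0.15 (SE; 95% interval 0.20 to 0.91, adjusted p = 0.178), or 1.47-fold. Its other probe set did not follow, with 4.70 in NFAT1 shRNA cells and 4.77 in control cells. With the mean of both probe sets Hoxa10 differed by 0.25 (adjusted p = 0.411). Hoxa2, which patterns the hindbrain and the second branchial arch, read 6.19, 7.06 and 7.22 on the NFAT1 shRNA arrays, against 5.90, 6.33 and 6.10 on the control arrays. NFAT1 shRNA 1 lay among the controls and the other NFAT1 shRNA arrays above them. Its difference was 0.71 ± 0.28 (SE; 95% interval 0.04 to 1.38, adjusted p = 0.275).

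The genomic sequence upstream of these 3 genes is shown because they had the largest differences among the Hox genes with a signal over 6. Each stretch has 300 bases around a RefSeq gene start, most of them upstream, on the minus strand of GRCm38.p6, and Hoxa10 has 2 such starts. Capitals mark 3 motifs searched on both strands. These were GGAAA, the core that NFAT proteins bind, TGATTNAT, a pair site of HOX and PBX proteins, and AGGTCA, a core site of nuclear receptors such as those for retinoic acid. No marked stretches overlap.
Hoxa5, chr6:52204538-52204837: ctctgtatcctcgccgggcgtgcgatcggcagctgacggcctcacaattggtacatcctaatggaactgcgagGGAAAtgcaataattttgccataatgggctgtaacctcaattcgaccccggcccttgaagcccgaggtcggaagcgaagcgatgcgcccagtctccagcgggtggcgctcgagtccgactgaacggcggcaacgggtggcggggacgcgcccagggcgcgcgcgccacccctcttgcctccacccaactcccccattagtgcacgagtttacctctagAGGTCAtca
Hoxa10, chr6:52240805-52241104: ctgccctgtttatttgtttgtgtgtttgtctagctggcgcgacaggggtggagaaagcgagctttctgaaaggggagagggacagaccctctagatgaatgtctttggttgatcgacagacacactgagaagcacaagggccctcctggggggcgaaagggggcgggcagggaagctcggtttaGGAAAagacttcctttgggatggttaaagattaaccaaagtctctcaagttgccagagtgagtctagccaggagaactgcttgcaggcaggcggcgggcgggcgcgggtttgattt
Hoxa10, chr6:52234890-52235189: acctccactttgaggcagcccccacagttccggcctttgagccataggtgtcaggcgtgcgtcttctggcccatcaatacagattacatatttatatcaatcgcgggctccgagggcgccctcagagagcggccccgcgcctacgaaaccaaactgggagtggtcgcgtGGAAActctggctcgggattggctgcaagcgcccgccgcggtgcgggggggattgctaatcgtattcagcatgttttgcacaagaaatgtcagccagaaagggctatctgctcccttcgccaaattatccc
Hoxa2, chr6:52164782-52165081: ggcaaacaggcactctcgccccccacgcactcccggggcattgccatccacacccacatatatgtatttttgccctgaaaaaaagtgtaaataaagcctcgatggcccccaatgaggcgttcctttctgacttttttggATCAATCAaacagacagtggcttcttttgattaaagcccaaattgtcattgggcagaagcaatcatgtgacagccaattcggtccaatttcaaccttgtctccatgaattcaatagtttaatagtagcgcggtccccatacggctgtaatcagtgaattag
GGAAA or its complement stood once in the Hoxa5 stretch and once in each Hoxa10 stretch, and not in that of Hoxa2. This core is common, as 61.3% of the 32851 RefSeq promoter stretches of the same length hold it. TGATTNAT stood only in the Hoxa2 stretch among these, and 3.22% of all stretches hold it. AGGTCA stood only in the Hoxa5 stretch among these, and 16.3% of all stretches hold it. Among the other 3 HoxA genes over 6, the stretch of Hoxa9 held GGAAA 4 times, that of Hoxa3 1 time and that of Hoxa7 0 times. A match is a run of letters, and binding was not measured. Promoter stretches were found for 19 of the 33 Hox genes. The CpG observed over expected ratio had a median of 0.60 over the 7 stretches of the 6 genes over 6, 0.67 over the 14 stretches of the other measured Hox genes, and 0.38 over all stretches.

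The other HoxA genes with a signal had smaller differences, and their groups overlapped. Hoxa3, which is needed for thymus and parathyroid, read 7.46, 8.08 and 8.04 on the NFAT1 shRNA arrays, against 7.63, 7.70 and 7.66 on the control arrays (difference 0.20 ± 0.17, SE). NFAT1 shRNA 1 was the lowest of the 6 arrays and NFAT1 shRNA 2 and 3 the highest. RefSeq's Hoxa3 gene spans Hoxa4, Hoxa5 and Hoxa6, so this gene model and those genes overlap on the minus strand. Hoxa7, which like Hoxa9 is linked to leukaemia, read 6.44, 7.11 and 6.72 on the NFAT1 shRNA arrays, against 6.50, 6.39 and 6.45 on the control arrays (0.31 ± 0.17). Hoxa9, which acts in blood stem cells and in the mammary gland, read 6.66, 7.55 and 7.15 on the NFAT1 shRNA arrays, against 6.52, 7.20 and 6.90 on the control arrays (0.24 ± 0.26). The controls of Hoxa9 were themselves spread more widely than the gap between the group means. The adjusted p was 0.560 for Hoxa3, 0.373 for Hoxa7 and 0.642 for Hoxa9. The dim Hoxa4, a gene of the cervical skeleton, read 3.52, 4.24 and 4.34 on the NFAT1 shRNA arrays, against 3.49, 3.75 and 3.59 on the control arrays (0.42 ± 0.22, adjusted p = 0.366). Hoxa11 and Hoxa13, which pattern the limb and the urogenital tract, stayed between 3.12 and 3.74 on all 6 arrays and differed by 0.08 and -0.05.

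**Figure D2:**
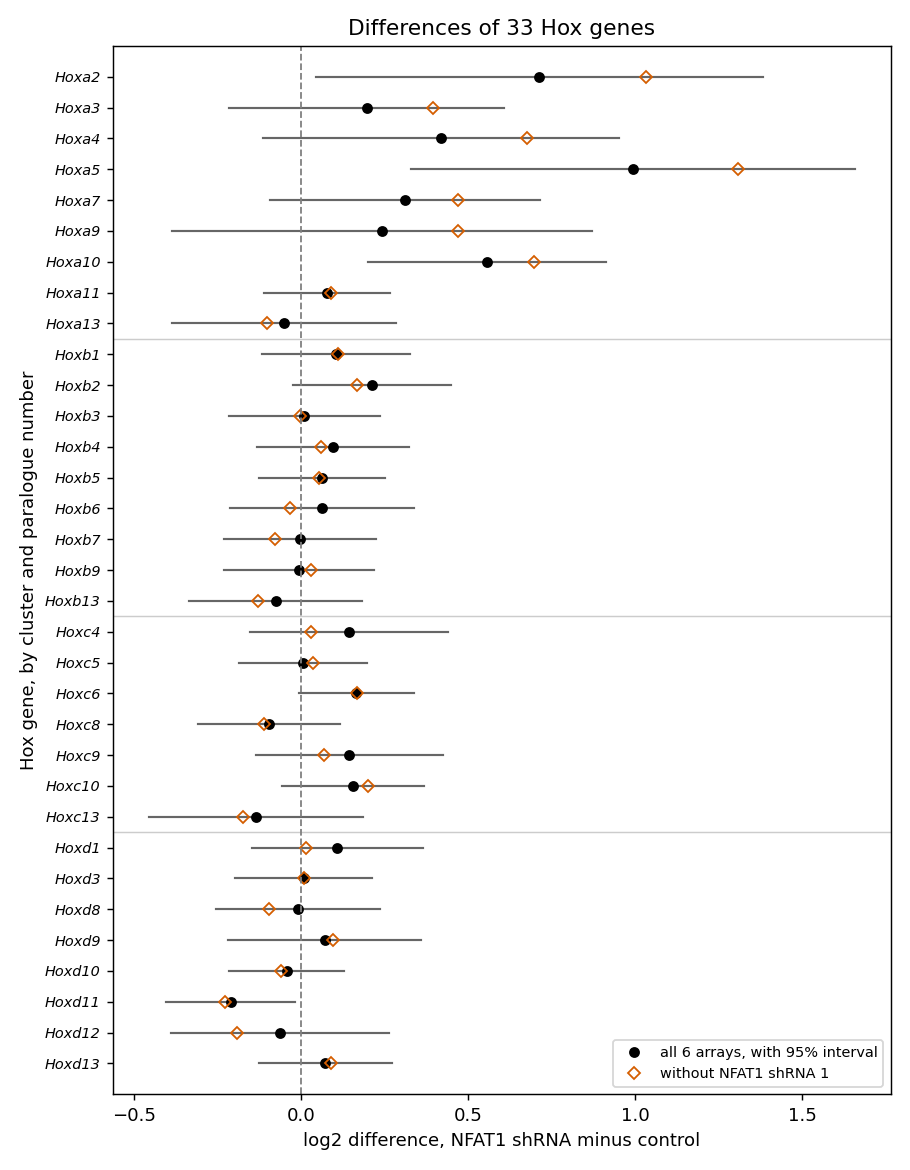
Log2 difference of each Hox gene, NFAT1 shRNA minus control, with all 6 arrays (filled points, bars 95% intervals from limma) and without NFAT1 shRNA 1 (open diamonds). Hoxa2 to Hoxa10 lie right of 0, up to 0.99 for Hoxa5, and move further right without NFAT1 shRNA 1, while the genes from Hoxa11 on and those of HoxB, HoxC and HoxD lie between -0.21 and 0.21.

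The size of the HoxA differences depended on NFAT1 shRNA 1. For all 6 HoxA genes over 6 this array was the lowest of its group, and for 5 of them NFAT1 shRNA 2 and 3 both lay above all controls. Over all genes with a mean over 6, NFAT1 shRNA 1 was the lowest of its group for 45.3% and NFAT1 shRNA 2 and 3 lay above all controls for 34.9%, so this order is common on these arrays. Without NFAT1 shRNA 1, 5 Hox genes rose: Hoxa2 by 1.03 (adjusted p = 0.00827), Hoxa3 by 0.40 (adjusted p = 0.0234), Hoxa4 by 0.68 (adjusted p = 0.0111), Hoxa5 by 1.31 and Hoxa10 by 0.70 (adjusted p = 0.0122). They were 15.2% of the Hox genes, against 18.4% of all genes called in the same setting, so this share is near the background. All were higher, where 10.6% of all genes were called higher. Of the 6 genes over 6, 4 passed, against 30.8% of all genes over 6. No HoxB, HoxC or HoxD gene passed in it. Without NFAT1 shRNA 1 and control 3 only Hoxa5 passed, or 3.03% of the Hox genes against 2.24% of all genes called and 1.25% called higher. Hoxa2, Hoxa10 and Hoxa4 then differed by 1.03, 0.63 and 0.67 (adjusted p = 0.0572, 0.0685 and 0.0695).

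The measured genes of HoxB, HoxC and HoxD were dim in both groups and differed little. Their largest differences were 0.21 for Hoxb2, -0.21 for Hoxd11 and 0.17 for Hoxc6. Hoxb2, a gene of the hindbrain, read 5.13, 5.10 and 4.91 on the NFAT1 shRNA arrays, against 4.90, 4.88 and 4.72 on the control arrays, which is no overlap by less than 0.01 (adjusted p = 0.324). Hoxd11, which acts with Hoxa11 in kidney and forearm, read 3.28, 3.30 and 3.16 on the NFAT1 shRNA arrays, against 3.44, 3.42 and 3.51 on the control arrays (adjusted p = 0.272). Hoxc6, a gene of the thoracic region, read 5.05, 5.07 and 5.05 on the NFAT1 shRNA arrays, against 4.84, 4.91 and 4.91 on the control arrays (adjusted p = 0.301). Its other 2 probe sets were higher as well, by 0.42 and 0.36, the latter on a probe set of the class that can cross-hybridise. These signals lay below the array medians of 5.42 to 5.48, where differences are compressed. The other members of these clusters differed by -0.13 (Hoxc13) to 0.16 (Hoxc10).

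Read by probe set, the 48 Hox probe sets also gave no call. None passed over all probe sets, where 0.200% did, and 6 had a limma unadjusted p under 0.05, where 15.7% did. Of the 11 Hox genes with several probe sets, 8 had all of them in 1 direction. The exceptions were Hoxa10, Hoxa3 and Hoxb3. The Hoxa3 probe sets differed by 0.20, 0.21, 0.07 and -0.14, and the other Hoxa9 probe set by 0.06. The antisense transcripts of the clusters were dim too. Hoxd3os1 on 1 of its 2 probe sets read 5.41, 5.11 and 5.37 on the NFAT1 shRNA arrays, against 5.78, 6.21 and 5.75 on the control arrays, a difference of -0.62 (adjusted p = 0.182 over all probe sets). Its other probe set differed by 0.04, and the probe sets of Hoxb5os and Hoxa11os by -0.04 to 0.20. Probe sets shared by Hoxd4 and Hoxd3 and by Hoxb8 and Hoxb7 read at most 5.74 on any array.

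The genes next to the HoxA cluster were set beside it, in the order of the RefSeq table. Skap2, a signalling adaptor that borders the anterior end, read 10.53, 11.06 and 11.02 on the NFAT1 shRNA arrays, against 9.99, 10.41 and 10.23 on the control arrays. The groups did not overlap, and the difference was 0.66 ± 0.18 (SE, adjusted p = 0.180). Snx10, a sorting nexin beyond Skap2, differed by 0.41, and Hibadh, a mitochondrial dehydrogenase beyond the posterior end, by 0.37. Hnrnpa2b1, an RNA-binding protein gene farther out, differed by -0.21. Of 7 such neighbours 0 passed. At an unadjusted p under 0.05, 1 was higher and 1 lower, where 17.1% of all genes had such a p. The median difference over the 7 neighbours was 0.19. Without NFAT1 shRNA 1, 3 of them rose, Skap2 by 0.83, Snx10 by 0.61 and Hibadh by 0.59, where 10.6% of all genes were called higher. On this array Hoxa2 lay 0.08 above the control mean and Hoxa3 0.20 below it, while on NFAT1 shRNA 3 Hoxa2 lay 1.11 and Hoxa3 0.38 above.

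**Figure D3:**
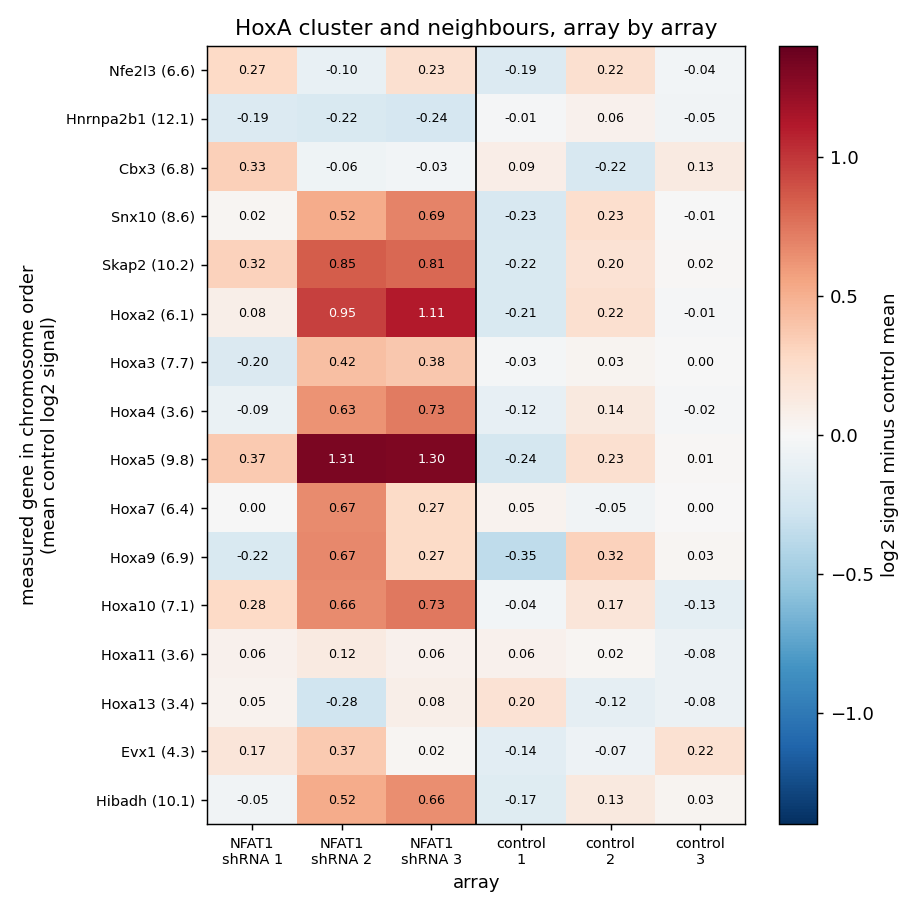
Log2 signal minus the mean of the 3 controls for measured genes in and beside the HoxA cluster (rows, chromosome order, mean control signal in brackets) on each array (columns, NFAT1 shRNA left of control). Snx10 to Hoxa10 are higher on NFAT1 shRNA 2 and 3, by 1.31 and 1.30 for Hoxa5. On NFAT1 shRNA 1 these genes differ from the control mean by -0.22 (Hoxa9) to 0.37 (Hoxa5). Hoxa11 and Hoxa13 stay within 0.28 of the control mean on all arrays.

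Of the HOX cofactors of the TALE class, 8 of 9 listed genes were measured and 0 passed with limma. At an unadjusted p under 0.05, 2 were higher and 0 lower, where 17.1% of all genes had such a p and 10.1% were higher. Meis1, which binds DNA with PBX and posterior HOX proteins, read 6.23, 6.77 and 6.52 on the NFAT1 shRNA arrays, against 5.77, 6.27 and 5.84 on the control arrays (difference 0.55 ± 0.19, SE, adjusted p = 0.237). NFAT1 shRNA 1 lay below control 2 there. Its relative Meis3 differed by 0.50 (adjusted p = 0.211). Pbx2, a partner of most HOX proteins, differed by 0.44, and Pbx3 by 0.07 and Pknox1, another MEIS relative, by -0.06. Pbx3 and Pknox1 turned sign in other settings. The median over the 8 was 0.07, against 0.04 over all genes. Without NFAT1 shRNA 1, Meis1, Meis3 and Pbx2 rose, by 0.69, 0.66 and 0.68, where 10.6% of all genes were called higher.

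Among chromatin regulators of the clusters, 31 Polycomb genes were measured and 0 passed, with 4 higher and 2 lower at an unadjusted p under 0.05 (limma). All 31 were over 6. Such a p was found for 17.1% of all genes and 24.3% of those over 6. The gene nearest to the threshold was Scmh1, a Polycomb group protein gene, with 0.46 ± 0.09 (SE, adjusted p = 0.0980). Yaf2, a subunit of a variant complex, read 8.72, 8.28 and 8.83 on the NFAT1 shRNA arrays, against 9.37, 9.35 and 9.31 on the control arrays (-0.73, adjusted p = 0.115). Ezh1, a methyltransferase of histone H3, differed by 0.78, Phf1 by 0.73 and Pcgf1 by 0.58, each with NFAT1 shRNA 1 within the range of the controls. The median over the list was 0.07. With NFAT1 shRNA 1 left out, 7 Polycomb genes rose and 4 fell, where 18.4% of all genes and 30.8% of those over 6 were called. Ezh1 then stood at 1.18 (adjusted p = 0.00819) and Yaf2 at -0.79 (adjusted p = 0.0223). Of 19 Trithorax-type genes, histone demethylases and MLL partners, all over 6, 0 passed. At an unadjusted p under 0.05, 2 were higher and 1 lower. Such a p was found for 17.1% of all genes and 24.3% of those over 6. Kdm6b, a demethylase that removes the Polycomb mark, read 8.81, 9.25 and 8.80 on the NFAT1 shRNA arrays, against 8.35, 8.12 and 8.24 on the control arrays. All NFAT1 shRNA arrays were above all controls, and the difference was 0.71 ± 0.14 (SE, adjusted p = 0.112). The MLL partner gene Mllt3 differed by 0.32, Mllt10 by 0.31 and the methyltransferase gene Kmt2d by 0.39. In this list 4 genes rose and 1 fell without NFAT1 shRNA 1. In that setting 18.4% of all genes were called, and 30.8% of those over 6.

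**Figure D4:**
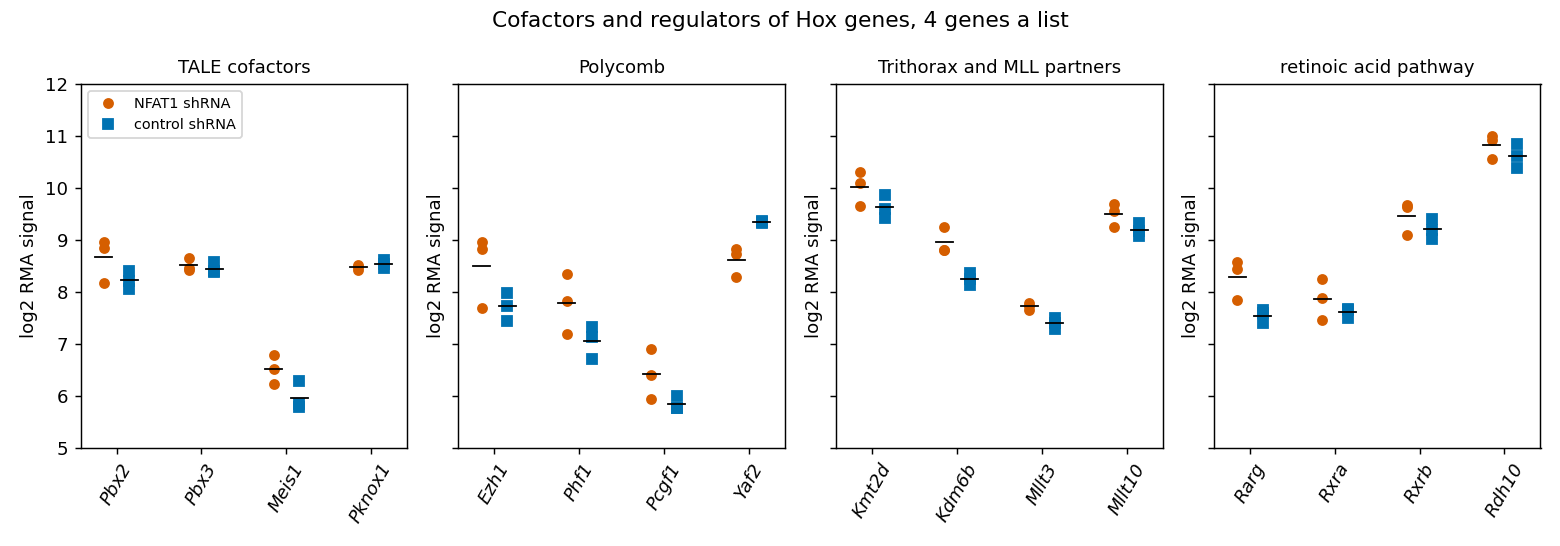
Log2 RMA signal on each array for the 4 genes with the largest absolute difference among those with a signal of at least 6, in each of 4 lists of cofactors and regulators (circles NFAT1 shRNA, squares control shRNA, 3 each, lines means). No control array reaches the NFAT1 shRNA arrays for Kdm6b, Mllt3 and Rarg, the reverse holds for Yaf2, and Pbx3 and Pknox1 overlap.

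Of 18 genes of the retinoic acid pathway 16 were measured, 15 of these had a higher mean in NFAT1 shRNA cells, against 59.3% of all genes, and the median difference was 0.24, against 0.04 over all genes. None passed with limma, and 1 was higher with an unadjusted p under 0.05, where 10.1% of all genes were higher at that p. That gene, the receptor gene Rarg, read 7.83, 8.57 and 8.43 on the NFAT1 shRNA arrays, against 7.39, 7.59 and 7.64 on the control arrays (0.73 ± 0.20, SE, adjusted p = 0.180). When NFAT1 shRNA 1 was left out, where 10.6% of all genes were called higher, Rarg rose by 0.96 (adjusted p = 0.00554), the receptor gene Rarb by 0.75 (adjusted p = 0.0214) and Dhrs3, which turns retinal back to retinol, by 0.83 (adjusted p = 0.0183). The partner receptor genes Rxrb and Rxra differed by 0.26 each, and Rdh10, which makes retinal from retinol, by 0.22. Most other genes of this list were dim, and only 4 of the 16 had a mean over 6. A higher mean was more common among dim genes, since 52.5% of genes over 6 had one, against 59.3% of all genes. The 3 Cdx genes, homeobox activators of Hox clusters, read at most 5.65 on any array and differed by -0.08 to 0.10.

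The labelled cell type was checked on marker genes. Of 8 mammary epithelial markers 7 had a signal over 6, with Krt8 at 13.01 to 13.23 on the NFAT1 shRNA arrays and 12.86 to 13.15 on the control arrays. The basal keratin gene Krt14 read 9.38, 7.46 and 8.40 on the NFAT1 shRNA arrays, against 10.67, 10.38 and 10.56 on the control arrays (-2.12, adjusted p = 0.123). Of 8 fibroblast markers 1 had a signal over 6, Pdgfra, and the defining collagen gene Col1a1 read 4.54 to 4.71 over all arrays. The mean signal of the fibroblast list ran from 4.70 to 4.84 on the NFAT1 shRNA arrays and from 4.52 to 4.71 on the control arrays. All 8 had a higher mean in NFAT1 shRNA cells, as did 59.3% of all genes and 52.5% of those over 6, so it was more common among dim genes. With all arrays and no block 0 of them passed. The leukocyte list had 2 of 7 markers over 6, Cd68 and Csf1r, with list means of 4.74 to 5.26 on the NFAT1 shRNA arrays and 4.82 to 4.99 on the control arrays. In the setting without NFAT1 shRNA 1, in which 5 HoxA genes passed, Cd68 rose by 1.30 (adjusted p = 0.00864) and Krt14 fell by 2.60 (adjusted p = 0.00463), while no fibroblast or endothelial marker passed. Of 5 endothelial markers 0 had a signal over 6. All 5 had a higher mean in NFAT1 shRNA cells, against 59.3% of all genes, a share that is higher among dim genes, and 0 passed. At a limma unadjusted p under 0.05, 2 were higher, against 10.1% of all genes. The part of these shifts in the Hox values was not tested. In RNA from many cells, fewer cells that express a gene and less of its RNA per cell cannot be told apart.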

How the data were processed

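RNA of 4T1 cells was measured on 6 Affymetrix arrays. The authors deposited log2 signals. The submitters' processing notes name RMA, and its version is not given in the sources used here. Array medians ran from 5.42 to 5.48, and quantile normalization hides a shift of most genes in 1 direction. Of 45037 probe sets, 34945 had 1 gene symbol, 932 had several and 9160 are unnamed here. GRCm38.p6 matched 34741 by gene number, and 0 symbols changed. Each of 18193 genes was read by 1 probe set, that of highest mean over all arrays. Groups were compared over all genes in R 4.3.3 with limma 3.58.1 (lmFit, eBayes), with no filter or covariates, with 2-sided p-values adjusted by Benjamini-Hochberg, after a test on simulated data. Beside Nfatc2 and the cluster antisense transcripts, genes named were the Hox genes over 6, those with an unadjusted p under 0.05, the 4 largest differences of the others, and the up to 4 largest differences of each gene list among genes with a group mean of at least 6. Meis3, Rarb, Dhrs3, Scmh1, Krt8, Col1a1, Hoxa11, Hoxa13, Hoxc13, Hoxc10, Hoxc9, Hoxd9 and Hoxb3 were named after their values were seen. Members and lists were chosen with earlier results of these data known. Same-numbered samples deviated together for numbers 1 and 2 (correlation 0.69 and 0.53 over genes). For number 3 the correlation was -0.04. Control 3 correlated at only -0.04 to 0.02 with every NFAT1 shRNA array, so this check cannot decide for number 3. Whether the numbers pair samples is thus not known. The main test did not pair them, and a setting with the replicate number as a block is given below. The number of arrays limits the precision. Promoter sequences are RefSeq's.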

Additional observations from a re-analysis of the deposited data

How the results depend on the processing

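Hox genes with a group mean over 6 numbered 6, and 5 to 6 in every other setting except other thresholds, which gave 12 at 5 and 4 at 7. Hoxa5 was higher in NFAT1 shRNA cells in all 16 other settings, by 0.83 to 1.31, and passed in 4 of them (adjusted p from 0.00501 to 0.507), and Hoxa10, by 0.25 to 0.74, passed in 2. Hox genes that passed numbered 5 with array weights (Hoxa2, Hoxa4, Hoxa5, Hoxa7 and Hoxa10), 1 with the replicate number as a block (Hoxa5, adjusted p = 0.0267), 1 with control 3 and NFAT1 shRNA 1 both left out, which was added after seeing the data, and 0 to 5 without single arrays. In the same order, all genes that passed numbered 3380, 792, 407 and 0 to 3349, against 93 with all arrays, genes of the gene lists 32, 8, 4 and 0 to 33, and Hox probe sets 3, 2, 0 and 0 to 7. Without control 1, 2 or 3 no gene passed with limma, while 1698, 2247 and 1761 had an unadjusted p under 0.05. All genes that passed numbered 151 with array medians subtracted and 58 with the probe set of highest SD. The groups did not overlap for 2 Hox genes after a filter on dim genes, which leaves fewer Hox genes, for 17 without control 3 and NFAT1 shRNA 1, and for 7 to 14 without single arrays, where fewer arrays make this easier. Signs turned for Pbx3 (-0.020 with medians subtracted, -0.0038 to 0.13 without single arrays, lowest without NFAT1 shRNA 3). The sign of Csf1r turned, to 0.23 with array weights and 0.35 with control 3 and NFAT1 shRNA 1 both left out. Without single arrays Csf1r ran from -0.64 to 0.37, highest without NFAT1 shRNA 1. Signs turned for Atp5g1 too (-0.36 to 0.026 without single arrays, highest without NFAT1 shRNA 2). They also turned with other probe sets of the gene, to 0.039 (mean) and 0.21 (highest SD) for Pknox1, -0.14 and -0.76 for Nfatc2, and -0.24 and 0.074 with the highest SD for Mllt10 and Cbx1. The cause of the other changes was not tested. Not every sample correlated best with its own number, since NFAT1 shRNA 3 deviated with control 2 (0.46).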

Other observations

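The genes beside the dim clusters were set next to those of HoxA. Around HoxD, Lnpk, which shapes the endoplasmic reticulum, read 8.47, 7.66 and 8.06 on the NFAT1 shRNA arrays, against 9.31, 9.07 and 9.03 on the control arrays. The groups did not overlap, and the difference was -1.07 ± 0.21 (SE, limma adjusted p = 0.100). The transcription factor genes Nfe2l2 and Atf2, farther out, differed by 0.40 and 0.34, and the mitochondrial import gene Mtx2 by -0.15. Around HoxC, Calcoco1 read 4.71, 7.07 and 7.26 on the NFAT1 shRNA arrays, against 4.76, 5.55 and 5.16 on the control arrays. NFAT1 shRNA 1 was the lowest of the 6 arrays there and the other NFAT1 shRNA arrays were the highest (1.19, adjusted p = 0.387). Without NFAT1 shRNA 1 Calcoco1 rose by 2.01 (adjusted p = 0.00496). Cbx5, the gene of a heterochromatin protein, differed by -0.66 (adjusted p = 0.133), Hnrnpa1 by -0.33 and Smug1, a DNA repair enzyme gene, by 0.16. Around HoxB, Cbx1, another heterochromatin protein gene, differed by -0.27, Nfe2l1 by 0.18, Atp5g1 by -0.12 and Snx11 by -0.10. None of the 21 measured neighbours of these 3 clusters passed with limma. At an unadjusted p under 0.05, 4 were lower in NFAT1 shRNA cells and 0 higher, where 17.1% of all genes had such a p and 10.1% were higher. Of these neighbours 3 rose and 3 fell without NFAT1 shRNA 1, where 18.4% of all genes were called. Beside Calcoco1, Nfe2l2 rose by 0.57 (adjusted p = 0.0273) and Atf2 by 0.50 (adjusted p = 0.0281), while Lnpk, Cbx5 and Cbx1 fell by 1.28, 0.80 and 0.35.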
